A study of Mus musculus with 2 samples.

Results

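Lipid-associated macrophages are tissue macrophages that take up, store and export lipid, and their RNA program is usually recognised by a short set of genes. The 10 genes described here (Apoe, Abca1, Trem2, Lpl, Fabp4, Fabp5, Plin2, Lgals3, Gpnmb and Spp1) were taken by symbol from the 27998 genes counted in tumor mononuclear phagocytes of mice with and without Fcmr, the Fc receptor for IgM. All 10 symbols were found, each as 1 gene identifier in both libraries.

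Macrophages receive lipid from lipoproteins, dying cells and membranes. Fatty acids released by lipases are carried through the cytosol by binding proteins and stored in droplets, while surplus cholesterol is passed by membrane transporters to apolipoprotein acceptors. Trem2, a surface receptor that binds lipids and lipoproteins, is known to be needed for the lipid-associated program in adipose tissue and atherosclerotic plaque, and macrophages rich in Spp1, Gpnmb and Trem2 RNA are commonly described in tumors.

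The cells came from B16 melanomas grown in C57Bl/6 mice, either Fcmr+/+ or Fcmr-/-. The deletion was carried by the whole animal rather than by macrophages alone, and both genotypes bore the same transplanted tumor line. Cells positive for MerTk and CD64 were sorted by flow cytometry and counted with a droplet-based 3' single-cell assay. Each genotype was 1 library, with the number of mice behind it not given in the sources used here. The values therefore compare 2 libraries, with no replicate check and no test between genotypes, and the 95% intervals cover counting error only.

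After the limits on genes and mitochondrial RNA, 6352 Fcmr+/+ and 7999 Fcmr-/- cells remained, holding 128408544 and 124630621 unique molecular identifiers (UMIs), with medians of 17974 and 12911 per cell. The libraries shared 73 cell barcodes. Fcmr RNA was too scarce to check the genotype labels, since only 7 UMIs (4 cells) were counted with the intact gene and 6 UMIs (6 cells) without it. All 9 macrophage markers examined, among them Csf1r, Mertk, Fcgr1 and Lyz2, were above 5 CPM, that is, counts scaled to 1000000 UMIs, and together they reached 18623 and 18470 CPM. Of the 5 adipocyte markers, Adipoq, Cidec and Lep were at 0 in both libraries, and the list summed to 0.0156 and 0.00802 CPM, with no higher than 0.124 CPM in any state. The 9 melanoma markers summed to 46.3 CPM in Fcmr+/+ and 70.7 CPM in Fcmr-/- cells.

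The genes are spread over 8 chromosomes of the GRCm38 build. In the GENCODE annotation Apoe spans chr7:19696109-19699188 and Abca1 chr4:53030787-53159895, both on the minus strand. Trem2 lies at chr17:48346401-48354147 and Lpl at chr8:68880491-68907448, both on the plus strand. The fatty acid binding protein genes lie in the same cluster, with Fabp4 at chr3:10204088-10208576 on the minus strand and Fabp5 at chr3:10012548-10016607 on the plus strand. Plin2 spans chr4:86648386-86670060 on the minus strand. Lgals3 (chr14:47367751-47386160), Gpnmb (chr6:49036546-49070929) and Spp1 (chr5:104435118-104441050) are on the plus strand. The assay reads transcript ends, so it does not tell which start site a transcript used. Spp1 is overlapped on its own strand by a predicted gene, Gm42793, which had no count of its own here.

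Promoters were available for 7 of the 10 genes from RefSeq (GRCm38.p6), and not for Lpl, Fabp4 and Fabp5. The 250 bases before the start site are printed for Spp1, the gene that differed most between the libraries, for Apoe and Trem2, which were lower in Fcmr-/- cells, and for Abca1 and Gpnmb, whose difference between the libraries changed direction from state to state. Sequences run from 5′ to 3′ along the gene, and capitals mark matches to the searched motifs.
Spp1, chr5:104434861-104435110, plus strand: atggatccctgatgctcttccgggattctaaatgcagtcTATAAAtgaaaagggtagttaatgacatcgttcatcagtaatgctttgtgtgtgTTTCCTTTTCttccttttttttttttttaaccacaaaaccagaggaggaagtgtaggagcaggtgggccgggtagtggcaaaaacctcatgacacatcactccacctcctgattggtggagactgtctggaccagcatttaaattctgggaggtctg
Abca1, chr4:53159896-53160145, minus strand: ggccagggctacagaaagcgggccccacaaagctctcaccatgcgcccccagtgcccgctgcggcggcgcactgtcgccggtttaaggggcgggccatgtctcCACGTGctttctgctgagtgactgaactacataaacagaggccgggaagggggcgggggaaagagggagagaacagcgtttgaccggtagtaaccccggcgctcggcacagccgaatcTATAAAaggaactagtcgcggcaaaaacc
Apoe, chr7:19699189-19699438, minus strand: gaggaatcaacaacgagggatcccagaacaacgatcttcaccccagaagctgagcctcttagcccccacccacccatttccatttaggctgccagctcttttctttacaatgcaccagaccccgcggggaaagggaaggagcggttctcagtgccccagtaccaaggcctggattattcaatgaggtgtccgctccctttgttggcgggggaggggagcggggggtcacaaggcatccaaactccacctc
Trem2, chr17:48346151-48346400, plus strand: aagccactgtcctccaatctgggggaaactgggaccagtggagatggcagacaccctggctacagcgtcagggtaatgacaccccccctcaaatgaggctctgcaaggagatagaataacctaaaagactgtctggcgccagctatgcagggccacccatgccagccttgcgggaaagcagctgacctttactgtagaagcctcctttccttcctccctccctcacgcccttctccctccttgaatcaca
Gpnmb, chr6:49036268-49036517, plus strand: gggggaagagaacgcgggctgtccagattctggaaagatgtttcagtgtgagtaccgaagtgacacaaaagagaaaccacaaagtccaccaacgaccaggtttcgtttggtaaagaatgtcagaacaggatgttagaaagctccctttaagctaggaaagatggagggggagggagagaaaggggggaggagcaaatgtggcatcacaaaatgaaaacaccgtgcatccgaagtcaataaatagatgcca

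The motifs were searched on both strands over the same 250 bases of 32851 RefSeq promoters. In Spp1 the capitals mark a TATAAA match, held by 12.4% of all promoters, and a match on the other strand to GAAA repeated after 2 bases, the core of the interferon-stimulated response element, held by 2.98%. Abca1 held CACGTG, an E-box also known as the core of the lysosomal CLEAR element (6.02% of promoters), and a TATAAA match. CACGTG contains ACGTG, the core of the hypoxia response element (16.6%), so these are 1 site. Apoe, Trem2 and Gpnmb held none of the motifs in the printed window, nor did Plin2 and Lgals3, whose promoters are not printed. For Apoe and Spp1 RefSeq also held start sites further from the annotated gene start, likewise not printed. Of their windows, chr7:19698622-19698871 of Apoe held TATAAA on both strands, and the others held no motif. None of these promoters held CACATG (12.3%), TGACTCA of AP-1 (4.46%), TTCNNNGAA of STAT sites (7.02%), or the nuclear receptor repeats of AGGTCA with 1 base (0.0335%) or 4 bases (0.0152%) between them. These are matches of letters, not measured binding. The AGGTCA repeats were searched in exact letters only and were in 11 and 5 of all promoters. Their absence therefore does not show that looser forms of these sites are absent.

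Taken over all cells, Spp1 was the only one of the 10 genes that differed by 1.5-fold or more between the libraries. It was higher in Fcmr-/- cells, where 2.4% of 8701 genes were higher by that much and 1.69% were lower. Genes with at least 5 CPM in either library were counted. The median log2 ratio of Fcmr-/- to Fcmr+/+ was 0.08 over the 10 genes, beside 0.00 over all genes. Ratios were computed on CPM plus a pseudocount of 1.

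Spp1 encodes osteopontin, a secreted phosphoprotein bound by integrins and CD44. Its level was 2719 CPM (95% interval 2710 to 2728) in Fcmr+/+ and 5019 CPM (5007 to 5032) in Fcmr-/- cells, a log2 ratio of 0.88. The middle of the distribution moved less, as a fold, than either end. The median cell held 8.53 Spp1 UMIs per 10000 in Fcmr+/+ and 12.9 in Fcmr-/-, whereas the 90th percentile was 79.0 and 170 per 10000. The 10th percentile was 0.979 per 10000 in Fcmr+/+ and 1.87 in Fcmr-/-. The 10% of cells with the most Spp1 held 55.2% of its UMIs in Fcmr+/+ and 57.2% in Fcmr-/-. With every cell thinned to 6000 UMIs, which left out no Fcmr+/+ and 443 Fcmr-/- cells, Spp1 was detected in 86.7% (85.8 to 87.5) and 93.5% (92.9 to 94.0) of cells. Without thinning it was detected in 96.0% and 98.7%.

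Among the genes of lipid carriage and efflux, Apoe was lower in Fcmr-/- cells and the Abca1 difference was within its counting interval. Apoe, the lipoprotein component that carries cholesterol away from macrophages, measured 6771 CPM (6756 to 6785) in Fcmr+/+ and 5094 CPM (5081 to 5106) in Fcmr-/- cells, a log2 ratio of -0.41. Its lower tail was lower as well, with a 10th percentile of 12.6 UMIs per 10000 in Fcmr+/+ and 6.58 in Fcmr-/- cells. Abca1, the transporter that loads cholesterol onto lipid-poor apolipoproteins, measured 205 CPM (202 to 207) and 202 CPM (199 to 204). The log2 ratio of Abca1 was -0.02, with a counting interval of -0.05 to 0.00, and its sign depended on how cells were weighted, as thinned cells gave 0.08.

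Trem2 was also lower without Fcmr. It measured 732 CPM (728 to 737) in Fcmr+/+ and 581 CPM (577 to 585) in Fcmr-/- cells, a log2 ratio of -0.33. The whole distribution lay lower, with a median of 6.50 UMIs per 10000 in Fcmr+/+ and 5.13 in Fcmr-/- cells and a 90th percentile of 13.1 and 10.5. The share of thinned cells with Trem2 was 93.1% in Fcmr+/+ and 89.9% in Fcmr-/- cells. Tyrobp, the adaptor through which Trem2 signals, did not share this direction over all cells, with 1617 CPM in Fcmr+/+ and 1721 CPM in Fcmr-/- cells.

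The genes of fatty acid release, transport and storage did not move as 1 group. Lpl, the lipase that frees fatty acids from lipoprotein triglyceride, was 943 CPM in Fcmr+/+ and 1106 CPM in Fcmr-/- cells, a log2 ratio of 0.23. Fabp5, a cytosolic fatty acid carrier, was likewise higher, with 4779 and 5641 CPM and a log2 ratio of 0.24. Fabp4, its paralog from the same cluster, was lower, with 530.0 and 412 CPM and a log2 ratio of -0.36. Fabp4 was also the least evenly spread of the genes. The 10% of cells with most Fabp4 held 58.0% of its UMIs in Fcmr+/+ and 66.9% in Fcmr-/- cells, and the share of thinned cells with any Fabp4 was 52.4% (51.2 to 53.7) and 43.6% (42.5 to 44.7). Unthinned shares were 67.9% and 56.4%. In thinned cells, which all weigh the same, the log2 ratio was -0.19. Plin2, which coats lipid droplets, was 1059 and 1159 CPM, a log2 ratio of 0.13.

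Lgals3 and Gpnmb differed little in summed UMIs, with log2 ratios of 0.06 and 0.10. In thinned cells the ratios were 0.12 and 0.24. Lgals3 encodes galectin-3, a glycan-binding protein, and measured 6414 CPM in Fcmr+/+ and 6691 CPM in Fcmr-/- cells. Gpnmb, a membrane glycoprotein of lysosomes and the cell surface, measured 938 and 1005 CPM. Every cell of both libraries held Lgals3 UMIs before thinning, whereas Gpnmb was detected in 76.9% and 77.7% of thinned cells and in 87.9% and 87.8% before. The median cell held 56.2 and 62.5 Lgals3 UMIs per 10000 and 4.80 and 4.92 Gpnmb UMIs per 10000.

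How far these shares reflect RNA free in the droplets could not be set, because the sort left too few cells poor in macrophage RNA. Of all cells, only 4, from the Fcmr-/- library, held under 5 macrophage marker UMIs, and their median depth was 5766 UMIs. All 4 held Apoe, Fabp5 and Lgals3 UMIs, and none of them held Abca1, Trem2, Lpl or Fabp4. Spp1 UMIs were in 3 of the 4, and 2 of the 4 held 2 or more T and NK marker UMIs. In these 4 cells Apoe was at 474 CPM, Fabp5 at 3277 CPM, Lgals3 at 776 CPM and Spp1 at 259 CPM.

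**Figure D1:**
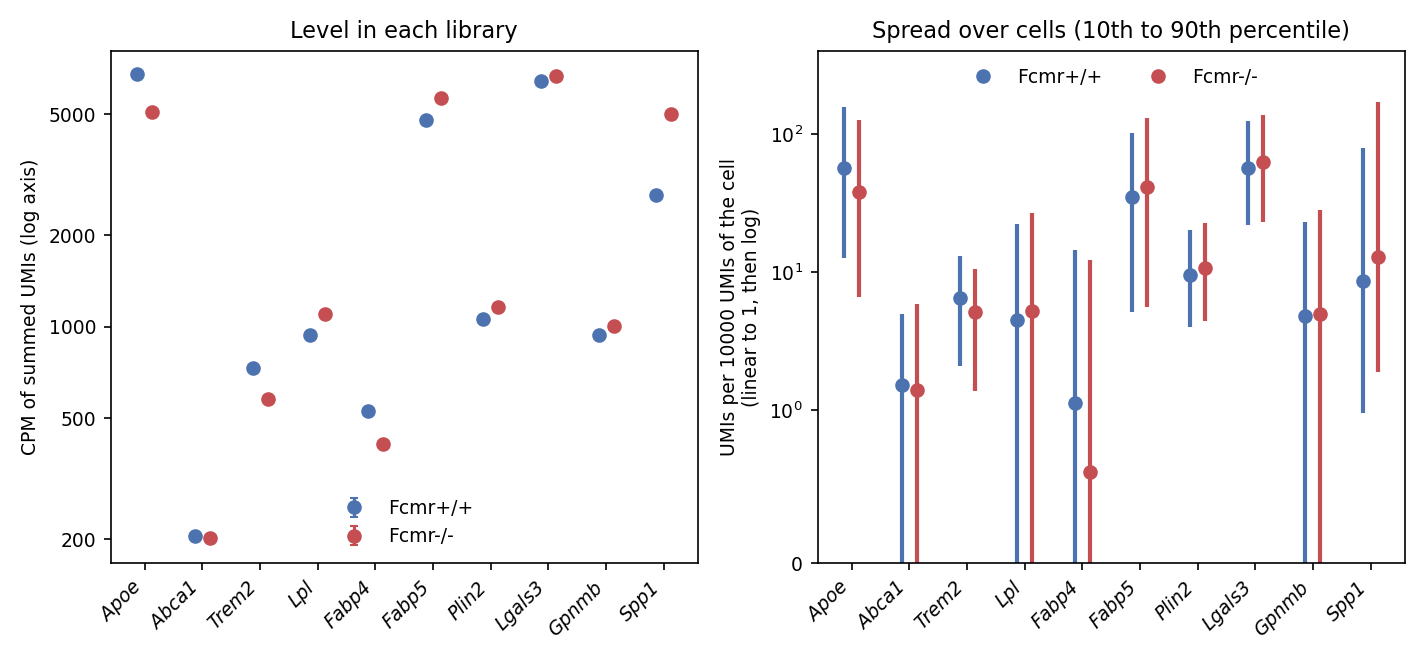
The left panel plots the level of each gene in each library, as CPM of summed UMIs on a log axis, with 95% counting intervals that are smaller than the points. The right panel plots the median over cells (point) and the 10th to 90th percentile (line) as UMIs per 10000 of the cell, on an axis that is linear up to 1 and logarithmic above. Spp1 is higher in Fcmr-/- and Apoe, Trem2 and Fabp4 are lower, while the ranges over cells of the libraries overlap for every gene.

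To ask in which macrophages these genes were high, both libraries were clustered together without the 10 genes and without the related gene lists described further on, which gave 11 states. Markers allowed a name for 6 of them. State 2 was inflammatory-like (Cxcl3, Il1a, Il1b), state 4 G2 and mitosis-like (Cenpf, Nusap1) and state 5 hypoxic-like (Adm, Egln3, Slc2a1, Ero1l). States 3 and 8 were type II interferon-like (Gbp4 and Gbp2 in state 3, Iigp1 and Cxcl9 in state 8), and state 9 type I interferon-like (Rsad2, Ifit1). Over all other cells, type II interferon markers had median log2 folds of 1.52 in state 3 and 1.63 in state 8. State 9 came close, at 1.45. Ly6c2, a monocyte marker, also led state 3, where monocyte markers had a median log2 fold of 0.75 over all other cells. The monocyte fold was larger in state 9, at 1.07, and largest in state 1, at 1.56. MHC class II markers were also highest in state 1, with a median log2 fold of 1.75, beside 1.08 in state 3. Adm was as high in state 11, at 57.9 CPM beside 56.3 CPM in state 5. The median log2 fold of the hypoxic markers was 1.92 in state 5, 1.02 in state 9 and 0.75 in state 11. The states without a name are given by their leading genes, which were Ccl17 and Il1r2 in state 1, Tfrc and Gas6 in state 6, Fbxo32 and Acp5 in state 7, Mfge8 and Plpp3 in state 10, and Adm and Cdk18 in state 11. In state 11, 2 of the 4 Mmp12 and Gpr137b-high markers were among the 10 leading genes, with a median log2 fold of 1.34 for that list. In state 6, 2 of the 8 Mrc1, Cd163 and Folr2-high markers were among the 10 leading genes, with a median of 1.10. Hbb-bs also led state 7, from 1590 UMIs in 5 Fcmr+/+ cells. Genes that vary with the 10 genes still shaped the clusters, so levels by state are a description.

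State 10 held the highest level of 6 of the 10 genes in Fcmr+/+ cells and of 7 in Fcmr-/- cells. Of all genes with at least 5 CPM, 3.70% and 4.46% had their highest level there. State 10 had 204 Fcmr+/+ and 617 Fcmr-/- cells, 3.21% and 7.71% of their libraries. Against the other states of the same library, Lpl, Fabp4, Fabp5, Lgals3, Gpnmb and Spp1 were at least 1.5-fold higher in Fcmr+/+ cells, where the same held for 1.54% of genes. In Fcmr-/- cells Abca1 and Plin2 joined them, 8 of 10 genes beside 2.97% of all genes. Lpl reached 2011 CPM in Fcmr+/+ and 2978 CPM in Fcmr-/- cells of state 10, Fabp4 reached 1180 (1146 to 1215) and 1683 CPM (1655 to 1711), and Gpnmb reached 2180 and 3219 CPM. Of the Spp1 UMIs, 6.92% in Fcmr+/+ and 21.4% in Fcmr-/- lay in state 10. Mfge8, which led this state, encodes a bridging protein for the uptake of dying cells.

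Apoe and Trem2 peaked elsewhere, in state 7. Apoe reached 14672 CPM in Fcmr+/+ and 13649 CPM in Fcmr-/- cells of that state, and its level in state 10 was 5455 and 4360 CPM. Trem2 reached 1163 and 1024 CPM in state 7 and came second in state 10, with 906 and 759 CPM. That second place is not settled. The interval of state 10 overlapped that of state 11 in Fcmr+/+ and that of state 6 in Fcmr-/- cells. Gpnmb was at least 1.5-fold higher in state 7 than in other states as well, which made 3 of 10 genes in Fcmr+/+ cells beside 2.44% of all genes. In Fcmr-/- cells Abca1, Fabp4 and Fabp5 passed the fold too, giving 6 of 10 genes beside 4.38%. State 7 held 748 Fcmr+/+ and 414 Fcmr-/- cells.

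Abca1 was highest in state 11, at 335 CPM in Fcmr+/+ and 601 CPM in Fcmr-/- cells. Fabp4, Lgals3 and Gpnmb were also at least 1.5-fold above other states there, so 4 of 10 genes passed in each library, beside 5.15% of all genes in Fcmr+/+ and 10.4% in Fcmr-/- cells. State 11 carried the most melanoma marker RNA, 88.5 CPM in Fcmr+/+ and 470 CPM in Fcmr-/- cells, all 9 markers being detected in the libraries. In the Fcmr-/- cells 5 of 154 cells held 88.6% of those UMIs.

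At the low end, state 1 held the lowest level of Trem2, Fabp4, Fabp5, Lgals3 and Gpnmb in both libraries. In it 6 of the 10 genes were at least 1.5-fold below other states in Fcmr+/+ cells (6.48% of all genes) and 7 in Fcmr-/- cells (5.96%). Fabp4 measured 212 and 99.9 CPM in state 1, against which its level in state 10 of Fcmr-/- cells was 16.9-fold higher. The highest level of dendritic cell marker RNA was also in state 1, 50.4 CPM in Fcmr+/+ and 107 CPM in Fcmr-/- cells. Monocyte and MHC class II markers were highest in state 1 as well, with median log2 folds of 1.56 and 1.75 over all other cells. The part of monocyte-like, MHC class II-high, Arg1-high or dendritic cells in the low levels was not tested.

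The other peaks were narrower. Plin2 was highest in the hypoxic-like state of Fcmr+/+ cells, at 1618 CPM, followed by the type I interferon-like state at 1493 CPM (1454 to 1533) and state 10 at 1439 CPM (1401 to 1477), 2 states whose intervals overlap. In Fcmr-/- cells its highest level was in state 10, at 1936 CPM. The hypoxic-like state held the lowest Apoe, 4383 and 3341 CPM. Hilpda, a droplet protein induced by low oxygen, was highest in the same state as Plin2 in Fcmr+/+ cells, with 1313 CPM there. In the order of states, 43 of the 200 neighbouring pairs over all 10 genes and both libraries had overlapping counting intervals, 7 of them for Abca1 in Fcmr+/+ cells.

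**Figure D2:**
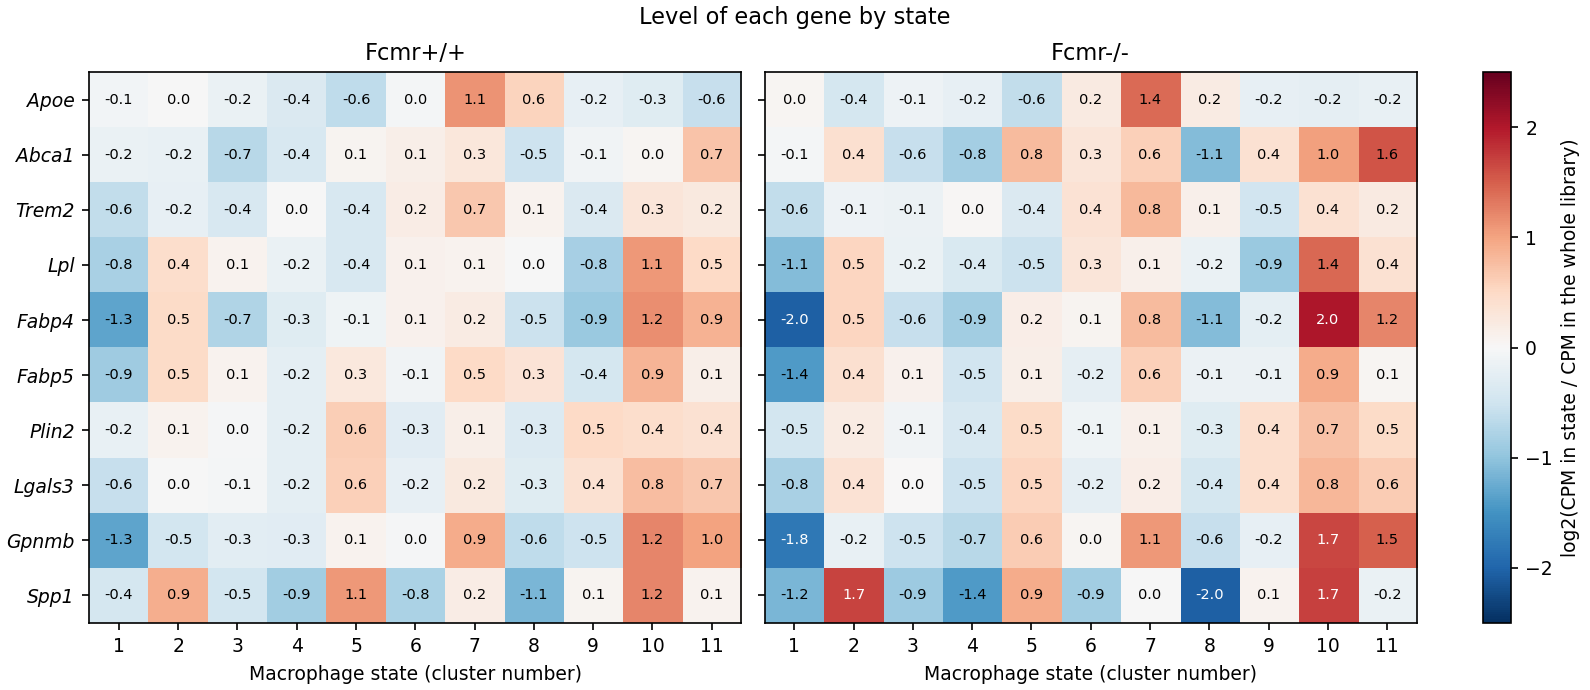
Each cell of the grid is the log2 ratio of a gene's CPM in a state to its CPM in the whole library, for Fcmr+/+ (left) and Fcmr-/- (right), with states as columns and genes as rows. Column 10 is the reddest for Lpl, Fabp4, Fabp5, Lgals3 and Gpnmb in both panels, Apoe and Trem2 are highest in column 7, and column 1 is the lowest for Fabp4 and Gpnmb.

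The libraries held the states in different proportions, so each gene was also compared within states. Fcmr-/- cells made up 95.1% of state 3 and 92.1% of state 8, the type II interferon-like states, and 22.2% of state 6. When every state was given the same weight in both libraries, Spp1 remained the only gene of the 10 past 1.5-fold (log2 ratio 0.97), beside 1.09% of 8646 genes higher and 0.729% lower. Apoe stood at -0.35 and Trem2 at -0.25 by that measure. Fabp4 moved closer to 0, at -0.15, and Abca1 lay above it, at 0.34. Gpnmb stood at 0.27. Clustering with 20 components gave -0.22 for Apoe, -0.17 for Trem2, -0.26 for Fabp4, 0.19 for Abca1 and 0.70 for Spp1. Leaving out cells with 5 or more G2 and mitosis UMIs, with the state weights unchanged, gave -0.06 for Fabp4 and -0.15 for Trem2. It moved Lpl from 0.22 to 0.03. States 3 and 8 had only 80 and 91 Fcmr+/+ cells. Over the 11 states, between 1.32% and 6.61% of all genes were higher by at least 1.5-fold and between 1.57% and 5.96% were lower.

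Spp1 was higher in Fcmr-/- cells in 10 of the 11 states and at least 1.5-fold higher in 7. The difference was widest in the inflammatory-like state, with 5098 CPM (5061 to 5134) in Fcmr+/+ and 16156 CPM (16080 to 16233) in Fcmr-/- cells, a log2 ratio of 1.66. Its median there was 20.2 UMIs per 10000 in Fcmr+/+ and 112 in Fcmr-/- cells. State 10 followed with 6298 and 16367 CPM, a log2 ratio of 1.38. The exception was state 8, the Cxcl9- and Iigp1-high interferon-like state, with 1232 CPM (1180 to 1285) and 1223 CPM (1208 to 1238). The 7 states were 2, 5, 6, 7, 9, 10 and 11, in which 2.38%, 5.34%, 1.32%, 4.12%, 6.1%, 6.59% and 6.54% of all genes were higher by 1.5-fold or more. Without cells that held 2 or more melanoma marker UMIs, Spp1 stood at 0.56 in state 5, under 1.5-fold, at 0.61 in state 3 and at 0.27 in state 8. Only 70 and 73 Fcmr+/+ cells were then left in states 3 and 8. Neutrophil marker RNA in state 2, mainly Csf3r over the libraries, was 38.4 CPM in Fcmr+/+ and 98.7 CPM in Fcmr-/- cells, and its part in the Spp1 level was not tested.

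The log2 ratios of Apoe and Trem2 were below 0 in all 11 states, but the counting interval reached past 0 for Trem2 in state 3 (-0.18 to 0.03) and for Apoe in state 11 (-0.06 to 0.00). Of all genes, 3147 of 8271 were below 0 in state 5, the smallest share, and 4391 of 8282 in state 2, the largest. The share of genes that keep the same sign over the states is not given here. Without the cells with melanoma marker UMIs, Trem2 in state 3 stood at 0.01. For Trem2 the log2 ratio lay between -0.46 in the type I interferon-like state and -0.07 in state 3, never reaching 1.5-fold. Its adaptor Tyrobp was also lower in state 10 (-0.14) and state 11 (-0.07), but higher in state 7 (0.15). For Apoe the log2 ratio lay between -0.85 in state 2 and -0.03 in state 11. Apoe passed 1.5-fold lower in state 2, from 6737 to 3749 CPM, and in state 8, from 9959 to 5887 CPM, where 2.63% and 4.15% of all genes were lower by that much. In state 2 the summed levels of Apoe and Spp1 thus differed in opposite directions between the libraries. These are sums over the cells of each library, not values within single cells.

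Fabp4, Abca1 and Gpnmb were higher in Fcmr-/- cells of some states and lower in others. Fabp4 passed 1.5-fold lower in states 1, 4 and 8 (log2 ratios of -1.08, -0.94 and -0.91), where 1.57%, 1.87% and 4.15% of genes were lower, and stood at 0.51 in state 10. Abca1 passed 1.5-fold higher in states 5, 10 and 11, with log2 ratios of 0.71, 0.96 and 0.84 beside 5.34%, 6.59% and 6.54% of genes higher, and stood at -0.46 in state 4 and -0.58 in state 8. In state 10 Abca1 was 212 CPM (198 to 227) in Fcmr+/+ and 412 CPM (399 to 427) in Fcmr-/- cells. Gpnmb passed in states 5 and 11, at 0.63 and 0.59. The Gpnmb value in state 11 lay at the threshold, and in state 10 it was 0.56. Without the cells with melanoma marker UMIs, Gpnmb stood at 0.66 in state 10 and 0.69 in state 11, both past 1.5-fold, and Abca1 at 0.94 in state 11. In state 3 Gpnmb and Fabp4 changed sign, from -0.16 to 0.30 and from -0.20 to 0.29. In state 4 T and NK marker RNA was 0.0450 CPM in Fcmr+/+ and 56.4 CPM in Fcmr-/- cells, and its part in the lower Fabp4 and Abca1 was not tested.

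Lpl, Fabp5, Plin2 and Lgals3 reached 1.5-fold in no state. Lpl ranged from -0.05 to 0.57 and was highest in state 10, and Plin2 ranged from -0.13 to 0.43. Fabp5 ranged from -0.28 in state 1 to 0.54 in the type I interferon-like state. Lgals3 ranged from -0.21 to 0.44.

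**Figure D3:**
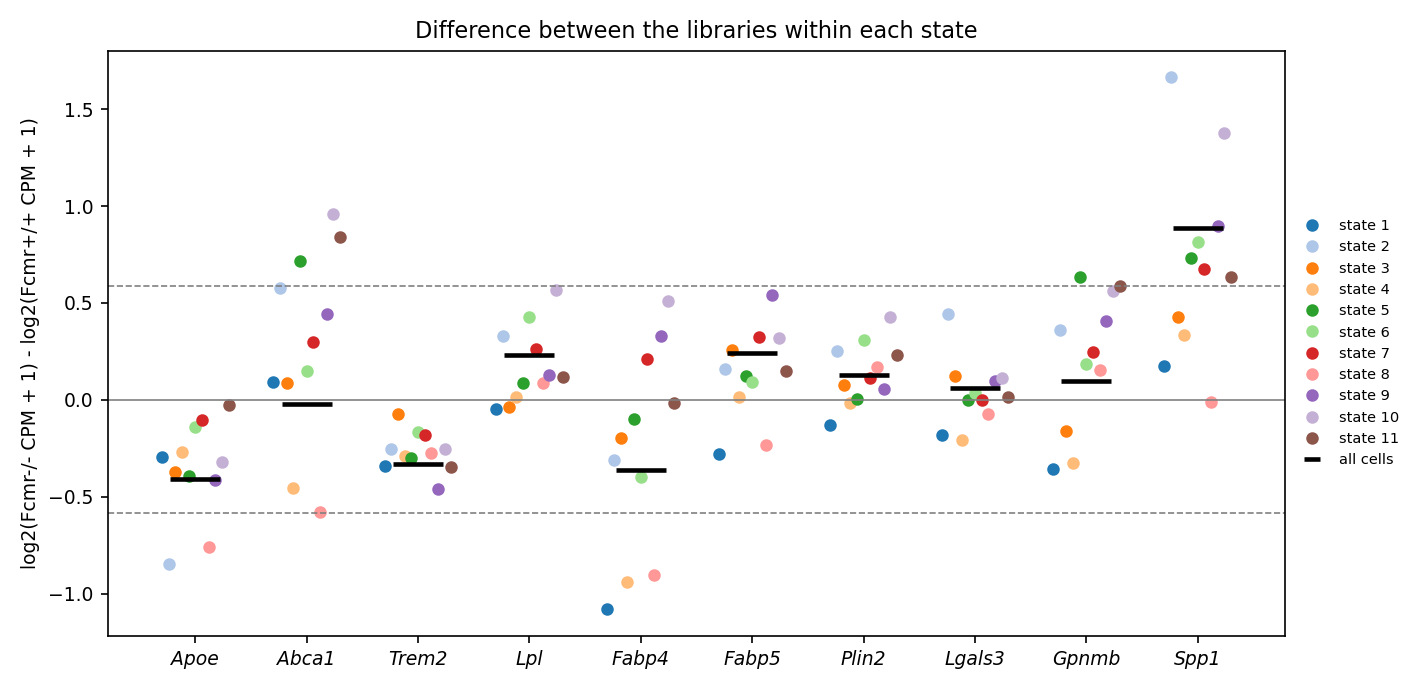
Points are log2 ratios of Fcmr-/- to Fcmr+/+ CPM within each of the 11 states, on CPM plus 1, black bars are the ratio over all cells, and dashed lines mark 1.5-fold. All points of Apoe and Trem2 lie below 0, 10 of 11 points of Spp1 lie above 0, and those of Fabp4 and Abca1 fall on both sides.

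Co-expression was described over cells, as the Pearson correlation r of log2(1 + UMIs per 10000). The median over the 45 pairs of genes was 0.216 over 6352 Fcmr+/+ and 0.275 over 7999 Fcmr-/- cells, with r above 0 for 42 and 41 pairs. The cells of a library share its depth and its free RNA, and in thinned cells the medians were 0.189 and 0.238. Part of the relation lay between states, since within states the medians were 0.174 and 0.178.

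The highest r in both libraries was that of Fabp5 and Gpnmb, 0.527 in Fcmr+/+ and 0.524 in Fcmr-/- cells. Lgals3 and Gpnmb followed with 0.480 and 0.506, and Fabp4 and Fabp5 with 0.471 and 0.504. Fabp4 and Fabp5 remained correlated within states, at 0.405 and 0.462. The r of Apoe was 0.423 and 0.351 with Trem2, 0.201 and 0.134 with Fabp5, and 0.204 and 0.127 with Gpnmb. It was 0.00 with Fabp4 in both libraries and -0.08 and -0.11 with Lpl. Trem2 was correlated with Gpnmb at 0.455 and 0.340.

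Several pairs with Abca1 and Spp1 had a larger r in Fcmr-/- cells. Abca1 and Spp1 had an r of 0.144 in Fcmr+/+ and 0.357 in Fcmr-/- cells, and Abca1 and Plin2 had 0.083 and 0.273. Within states the first pair stood at 0.128 and 0.222. Lgals3 and Spp1 had an r of 0.317 and 0.438, and of 0.211 and 0.249 within states. With 1 library of each genotype these differences have no replicate check.

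**Figure D4:**
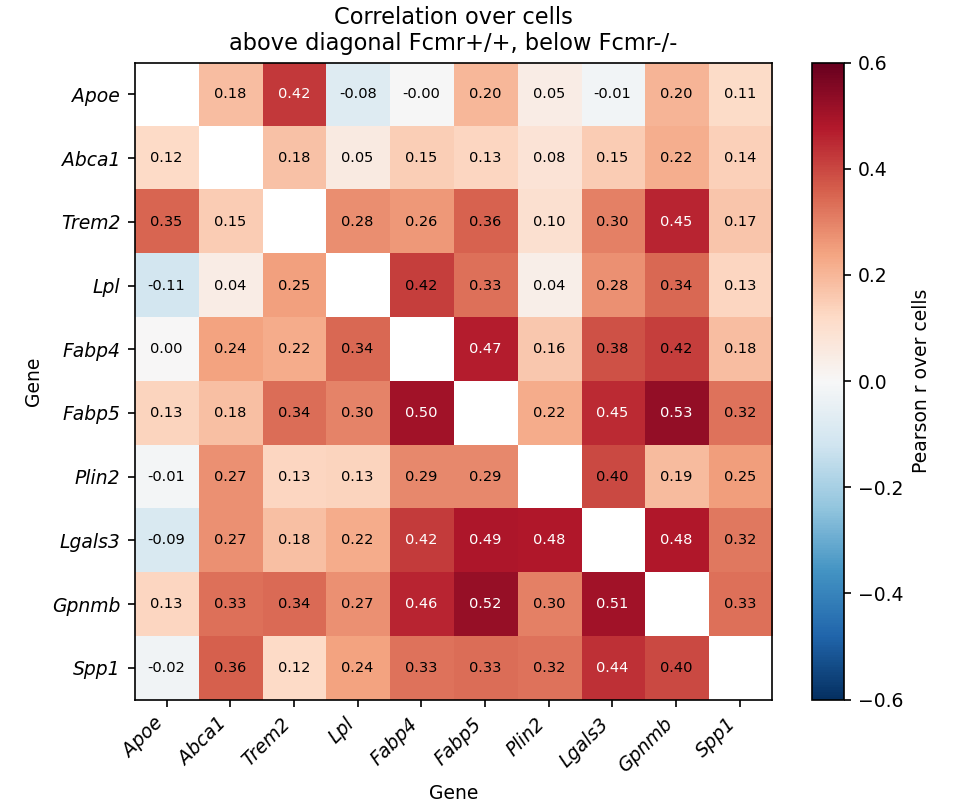
Pearson r over cells for each pair of genes, Fcmr+/+ above and Fcmr-/- below the diagonal, with rows and columns in the same gene order. The highest value in each library is that of Fabp5 and Gpnmb (0.527 and 0.524), and values are near 0 between Apoe and Lpl, Fabp4, Plin2 or Lgals3.

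Single cells that were high for several genes at once were counted after thinning, with high meaning above the 90th percentile of the cell's own library. At least 3 of the 10 genes were high in 10.4% of Fcmr+/+ and 11.2% of Fcmr-/- cells, and at least 5 in 1.61% and 2.65%. State 10 was richest in such cells. In it 36.3% (29.7 to 43.3) of 204 Fcmr+/+ and 52.4% (48.3 to 56.5) of 586 thinned Fcmr-/- cells were high for 3 or more, and 9.80% (6.09 to 14.7) and 21.5% (18.2 to 25.1) for 5 or more. State 7 came next for 3 or more, with 27.0% and 28.7%, followed by state 11 with 22.9% and 24.7%. In state 1 the share was 0.871% and 0.273%. A single Fcmr-/- cell was high for all 10 genes.

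**Figure D5:**
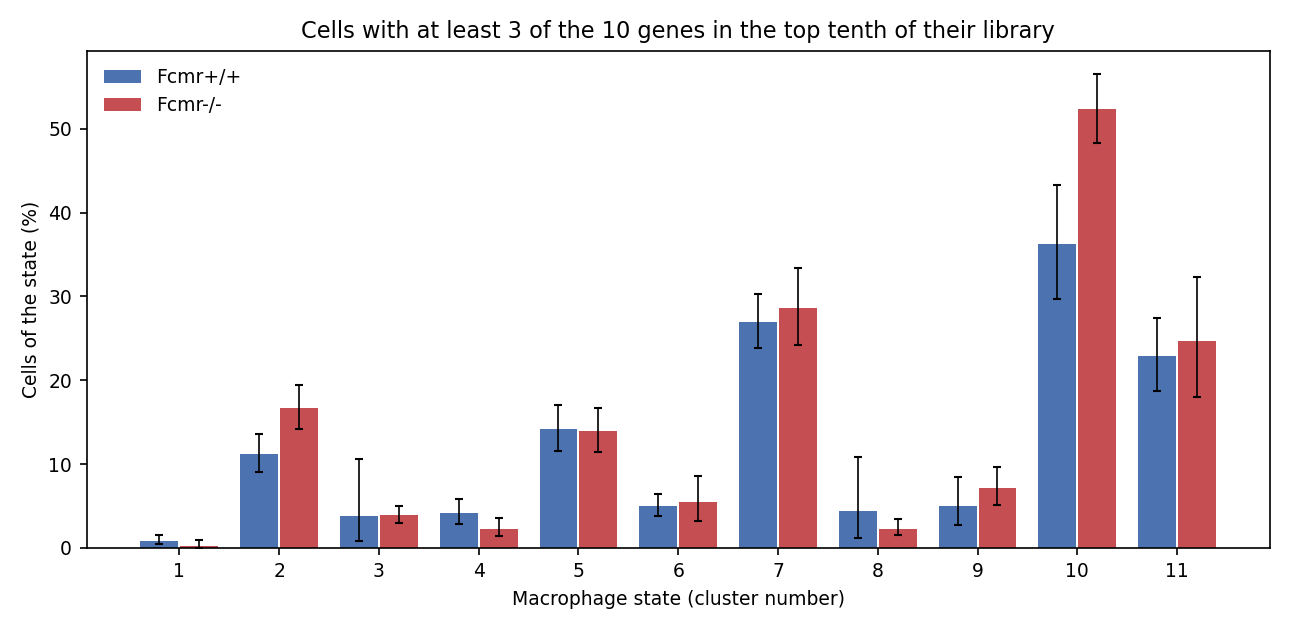
Bars give the percent of thinned cells in each state in which at least 3 of the 10 genes were above the 90th percentile of their library, with 95% binomial intervals. State 10 has the tallest bars (36.3% in Fcmr+/+ and 52.4% in Fcmr-/-), followed by states 7 and 11, and state 1 has the lowest.

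The genes most like each of the 10 were ranked among the 5023 other genes with at least 20 CPM in both libraries, by the lower of the r values in the libraries. Ctsd, a lysosomal protease, was among the closest 3 of Trem2 (0.504), Gpnmb (0.514), Fabp5 (0.495), Fabp4 (0.392) and Abca1 (0.245), and Ctsb was closest to Fabp5 (0.511). Trem2 was followed by Ctsb and Hexa, and Gpnmb was nearest to Psap (0.536), the saposin precursor. Atp6v0d2, a subunit of the lysosomal proton pump, was closest to Fabp4 (0.433). Lpl was nearest to the fatty acid receptor Cd36 (0.467), followed by Igf1 and the lysosomal lipase Lipa. Apoe was nearest to Itm2b, Ms4a7 and Sepp1, at 0.496, 0.488 and 0.453. Abca1 had the transporter Abcg1, which also exports cholesterol, as its second neighbour, at 0.251. Spp1 was nearest to Ctsl (0.457), Cd9 and Pdpn, Plin2 to Ctsl, Cstb and Rnh1, and Lgals3 to Ftl1, Rnh1 and Vim.

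Other genes of the same pathways were read from 6 lists. None of their genes differed by 1.5-fold over all cells in either direction. At equal state composition the 6 medians lay between -0.08 and 0.08, and those of the further lipid-associated genes, of cholesterol efflux and of Trem2 signaling changed sign. Of the 20 further lipid-associated macrophage genes, which include the lysosomal cathepsins, the median log2 ratio was -0.04. Msr1, a scavenger receptor, and Capg, an actin capping protein, were highest, at 0.29 and 0.22, and Syngr1 and Atp6v0d2 were lowest, at -0.48 and -0.43. As with the 10 genes, state 10 held the highest level of 10 of these 20 in Fcmr+/+ and of 7 in Fcmr-/- cells, beside 3.70% and 4.46% of all genes. State 7 held the highest level of 4 and 6 of them, beside 6.60% and 8.38% of all genes. Ctsl was among those highest in state 10, with 4963 and 6885 CPM. Cd36 reached 877 and 1313 CPM there.

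Among 14 genes of cholesterol efflux and the liver X receptors the median was -0.08, and 0.04 with a filter at 20 CPM. Nr1h3, which encodes one of those receptors, and Npc2, a lysosomal cholesterol carrier, were highest, at 0.49 and 0.29, and Mylip, a ubiquitin ligase, and Scd2, a fatty acid desaturase, were lowest, at -0.56 and -0.50. Abcg1 stood at 0.22, with its highest level in state 11, as for Abca1. Among 17 genes of fatty acid handling the median was 0.00, with the lipase Mgll (0.48) and the acyl-CoA ligase Acsl1 (0.36) highest and Acsl3 (-0.47) and the triglyceride lipase Pnpla2 (-0.34) lowest. The 14 regulators had a median of -0.14. Hif1a (0.25) and Mitf (0.23) were highest, Bhlhe40 (-0.44) and Nr4a1 (-0.41) lowest, and Pparg, a nuclear receptor that is known to induce Fabp4 and Plin2, stood at 0.17. Among 14 genes of Trem2 signaling and osteopontin receptors the median was -0.05, Plcg2 (0.25) and Adam17 (0.24), which sheds Trem2 from the membrane, were highest, and Trem1 (-0.28) and Itgb5 (-0.18) lowest. The osteopontin receptor Cd44 stood at -0.05, with 424 CPM in Fcmr+/+ and 410 CPM in Fcmr-/- cells.

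The 15 genes of cholesterol synthesis had a median of -0.03 over all cells, with Fdps at 0.22 and Insig1 at -0.49. That median was 0.007 with no filter on low values and 0.07 with a filter at 20 CPM. Most genes of the list were lower in Fcmr-/- cells of states 2 and 10. In state 10, 9 of the 14 measured were lower by at least 1.5-fold and none higher, with a median log2 ratio of -0.69 beside 0.07 for all genes, of which 3.75% were lower by that much. In state 2, 9 of 15 were lower and none higher, with a median of -0.73 beside -0.02 for all genes, of which 2.63% were lower. The list's median was below 0 in further states, at -0.28 in state 3, -0.23 in state 9, -0.15 in state 6 and -0.04 in state 5. In state 9, 4 of 14 were lower by at least 1.5-fold and none higher, beside 5.8% of all genes lower. The list's median was above 0 in 5 states, at 0.10 in state 1, 0.21 in state 4, 0.22 in states 8 and 11 and 0.31 in state 7. States 2, 7 and 10 were singled out after their values were seen. In state 10 Fdps, an enzyme of the mevalonate pathway, measured 22.9 CPM in Fcmr+/+ and 10.5 CPM in Fcmr-/- cells (88 and 86 UMIs). The other genes called lower in state 10 rested on fewer Fcmr+/+ UMIs. Stard4 had 28 UMIs in Fcmr+/+ and 22 in Fcmr-/- cells. Fdft1 had 36 and 45, with a counting interval of -1.44 to -0.10 for its log2 ratio. In state 7 none of 14 was lower by 1.5-fold, beside 3.81% of all genes. Cyp51, Sqle and Stard4 were at least 1.5-fold higher there, beside 4.12% of all genes. They rested on few UMIs in Fcmr+/+ and Fcmr-/- cells, 137 and 93 for Cyp51, 107 and 80 for Sqle and 61 and 43 for Stard4.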

How the data were processed

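Mononuclear phagocytes sorted as MerTk+ CD64+ from B16 tumors were counted with a droplet-based 3' assay, 1 library per genotype. The authors aligned reads to GRCm38 (mm10) and deposited the UMI counts of Cell Ranger for every gene and barcode without normalization, and they analysed them in Seurat 2.1.0. Here cells with 200 to 7000 genes and at most 30% mitochondrial UMIs were kept, and no doublet caller was run. Both libraries were clustered in Seurat 5.3.0 (R 4.3.3) after log-normalization to 10000, on 1298 variable genes without the 10 members and the related lists, with 10 components, 30 neighbors and a resolution of 0.8.

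Counts were summed per library or state and scaled to CPM, with exact Poisson intervals, exact Clopper-Pearson intervals for shares and conditional exact intervals for ratios (Python 3.11.15, scipy 1.17.1). PCR and capture errors are not in these intervals. Depth, given in the report, was equalised by thinning to 6000 UMIs per cell. Thinned cells all weigh the same in a CPM, and cells below that depth were left out. Thinned ratios therefore differ from summed ones in the weighting of cells as well. The summing step was tested on simulated data. Genes named were the 10 members, the 2 highest and 2 lowest of each list with genes whose role bears on a member, and the 3 closest by correlation, and a few genes that this rule names are not reported here. The members and lists were chosen with earlier results of these data known. Normalization, pseudocount, limits on cells, doublets, melanoma and dividing cells, fold, depth and clustering were varied.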

Additional observations from a re-analysis of the deposited data

Results flagged for a closer look

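For 3 genes the difference between the libraries lay at least 0.32 from 0 in opposite directions in 2 states, as the log2 ratio of Fcmr-/- to Fcmr+/+ CPM plus 1. Abca1 stood at 0.96 in state 10 and at -0.58 in state 8, where 91 Fcmr+/+ cells were compared with 1062 Fcmr-/- cells. Fabp4 stood at 0.51 in state 10 and at -1.08 in state 1. Gpnmb stood at 0.63 in state 5 and at -0.36 in state 1. With 1 library per genotype, none of these differences between states was tested. The share of all genes that meet the same rule was not counted, so these 3 genes cannot be called unusual.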

How the results depend on the processing

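No paired analysis was possible because each genotype is 1 library and the labels give no replicate numbers, so genotype, mouse, tumor and library preparation cannot be told apart. Spp1 was the only gene past 1.5-fold at every alternative but a fold of 2, where 0 genes were higher, and at a threshold of 0.32 on the log2 scale, 3 genes were lower. The median log2 ratio of the 10 genes was 0.14 as a mean over cells, 0.092 with at most 5000 genes per cell, 0.12 without the 5% of cells with most UMIs or without cells with 2 or more melanoma UMIs, and 0.13 without cells with 5 or more G2 and mitosis UMIs or thinned. At equal state composition it was 0.12 with at most 5000 genes per cell and 0.064 without the cells with 5 or more G2 and mitosis UMIs. Leaving out cells did not change the weights of the states. The median at equal state composition was 0.11 with the 10 genes and lists kept in the clustering and 0.10 with 20 components. Without limits on cells that value could not be given, since the removed cells were in no state. The median correlation was 0.189 and 0.238 thinned and 0.174 and 0.178 within states. The cause of these moves was not tested. Abca1 over all cells changed sign under 6 of 11 alternatives (lowest -0.03, highest 0.12). Apoe and Trem2 stayed below 0 and Spp1 above 0 under all 11 alternatives over all cells and all 14 at equal state composition. Leaving out cells with melanoma UMIs within each state, an alternative chosen after seeing the data, moved 55 of 110 ratios out of their counting interval. Depth limits Abca1 and Fabp4 most, which were detected in 58.5% and 52.4% of thinned Fcmr+/+ cells.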
